A study of Homo sapiens with 12 samples.

Results

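The response of 143B cells that was shared by 3 treated groups was described from 9 treated libraries and 3 control libraries, which are all 12 libraries of the series. 143B is an established human osteosarcoma cell line, labelled wild type here. The members were chosen by their titles alone: 3 libraries titled BSG, 3 titled M-BSG and 3 titled M-BSG-Hot were compared with 3 titled NC, the control, and each treated group was given the same weight. According to the titles, M-BSG is the material 5-MNP-BSG and M-BSG-Hot is 5-MNP-BSG (+). Borosilicate bioactive glass, moderate magnetic hyperthermia and osteosarcoma are named in the series title. A single treatment text that names 5-MNP-BSG and an alternating magnetic field is attached to every sample, controls included, so the labels do not say which group received which material, field, dose or time. All cells were kept in DMEM with serum. Whether the 3 libraries of a group are separate cultures is not stated, and all p-values below refer to the spread between libraries, which may be technical.

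Bioactive glasses are solids that dissolve slowly in body fluid or medium and release ions such as calcium, borate, silicate and sodium, which also raises the pH. Cells answer many outside stimuli within minutes to hours through immediate-early genes, whose promoters are already poised and whose products, such as FOS and EGR1, are transcription factors that switch on a later set of genes. That later set holds many brakes on the same signals, among them phosphatases, RNA-destabilising proteins and inhibitors of NF-kB. Most of these transcripts are short-lived, so their level follows recent transcription closely.

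The promoters of several genes that were higher in every treated library carry sequence elements that can be read directly. The RefSeq promoter table (GRCh38.p14) was matched by gene symbol, and the 120 bases before the annotated start are printed 5′ to 3′ on the strand of the gene. In the first 5 promoters, at chr14:75278708-75278827 (FOS, plus strand), chr19:45467876-45467995 (FOSB, plus), chr19:12791366-12791485 (JUNB, plus), chr6:31815423-31815542 (HSPA1A, plus) and chr17:45148355-45148474 (HEXIM1, plus), the capitals mark TATAAA, the core of the TATA element.
FOS: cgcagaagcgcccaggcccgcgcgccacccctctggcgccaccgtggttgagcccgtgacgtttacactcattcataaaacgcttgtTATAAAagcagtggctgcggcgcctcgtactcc
FOSB: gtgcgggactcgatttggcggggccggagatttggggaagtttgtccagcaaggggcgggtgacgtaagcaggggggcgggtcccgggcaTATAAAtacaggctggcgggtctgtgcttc
JUNB: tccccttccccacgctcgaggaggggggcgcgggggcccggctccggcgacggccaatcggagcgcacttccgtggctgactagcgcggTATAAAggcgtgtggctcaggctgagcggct
HSPA1A: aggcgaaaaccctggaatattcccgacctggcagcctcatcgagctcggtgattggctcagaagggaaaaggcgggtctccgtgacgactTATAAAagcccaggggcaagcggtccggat
HEXIM1: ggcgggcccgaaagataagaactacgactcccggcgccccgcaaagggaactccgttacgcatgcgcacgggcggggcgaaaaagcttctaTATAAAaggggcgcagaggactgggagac

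In these 5 promoters the TATAAA began between 33 and 29 bases before the start (positions -33 in FOS, -30 in FOSB and HSPA1A, -31 in JUNB and -29 in HEXIM1). In EGR1 (chr5:138465359-138465478, plus strand) and EGR2 (chr10:62816367-62816486, minus) the capitals mark the CArG box, the element read by serum response factor, which matched at -105 and -83 in EGR1 and at -71 in EGR2. In NFKBIA (chr14:35404750-35404869, minus) they mark a kappa B site at -81 and, as TTTATA on the printed strand, a TATAAA of the other strand at -33.
EGR1: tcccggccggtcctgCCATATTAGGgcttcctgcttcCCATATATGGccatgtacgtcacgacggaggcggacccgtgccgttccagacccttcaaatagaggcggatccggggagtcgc
EGR2: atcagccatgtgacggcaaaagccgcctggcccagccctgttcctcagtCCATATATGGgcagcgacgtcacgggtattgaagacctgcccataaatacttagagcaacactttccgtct
NFKBIA: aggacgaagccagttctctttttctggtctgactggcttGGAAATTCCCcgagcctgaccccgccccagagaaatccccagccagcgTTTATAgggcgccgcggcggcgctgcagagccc
A match is a description of the letters in the window and not a measured binding site.

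Total counts were 34434993 to 38163152 per library, and 18827 to 19599 genes had a count. BSG 1, M-BSG 1 and M-BSG-Hot 3 differed most from their own groups. Replicate pairs had a chi-square of 3.37 to 60.9 per degree of freedom, more than sampling noise gives. For M-BSG-Hot the choice was close, as libraries 1 and 3 stood at 15.4 and 17.8 against library 2. Without BSG 1, M-BSG 1 and M-BSG-Hot 3 more genes were called, 1199 higher and 1705 lower in place of 646 and 1056. They were left out for their deviation, so a smaller spread was built into that fit. Mitochondrial genes took 6.56% to 7.82% of the counts of treated libraries and 5.98% to 6.75% in NC (exact two-sided permutation test, n = 9 and 3, p = 0.0273, or 0.0727 adjusted over 4 library measures). Markers of osteosarcoma and mesenchymal cells varied in level. Over all libraries VIM was at 3895 CPM (library-scaled counts, with TMM factors), SPARC at 341, COL1A1 at 7.84 and ALPL at 2.54. Of 11 such markers 2, THY1 and PDGFRB, were under 1 CPM. Of 7 immune markers 5 were under 1 CPM, as were 4 of 6 endothelial and 4 of 8 epithelial markers. The epithelial markers KRT18, KRT8 and EPCAM were at 968, 362 and 16.2 CPM. Summed epithelial markers were 1205 to 1699 CPM in treated libraries and 1208 to 1343 in NC. Summed immune markers were 120.3 to 166 CPM in treated libraries and 134 to 153 in NC, nearly all of it CD68. In RNA from a whole culture, fewer cells of a type and less RNA per cell cannot be told apart.

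Across the 3 treated groups 646 genes were higher than in NC and 1056 were lower, 4.19% and 6.85% of the 15407 genes tested, at an adjusted p under 0.05 in edgeR's quasi-likelihood test of the mean of the 3 groups. A gene was counted as common when it passed this test, moved the same way in each group and had all 9 treated libraries beyond all 3 NC libraries. By this measure 490 genes were common higher (3.18% of tested genes) and 869 were common lower (5.64%). At least 2-fold, 214 genes were higher (1.39%) and 268 lower (1.74%), of which 154 (1.00%) and 229 (1.49%) were common. Larger changes lay on the other side: 93 common higher and 56 common lower genes changed at least 4-fold, 64 and 11 at least 8-fold, and 42 and 0 at least 16-fold. Of these 42 rises 12 were in genes with more than 3 counts over the NC libraries. In each of the 3 comparisons with NC taken singly, which share the same NC libraries, 164 genes (1.06% of tested) were called higher and 299 (1.94%) lower, and all of these were common. The NC libraries limited these counts: without NC 1, NC 2 or NC 3 the higher genes were 382, 341 and 344 and the lower genes 618, 539 and 547. The common higher genes were 320 without NC 2 and 307 without NC 3, and the common lower genes 533 and 534. With library size as the only scaling, 24.3% of the called genes were higher, against 38% with TMM.

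FOS and FOSB, whose transcripts are short-lived, were among the 12 common higher genes of largest fold change that averaged at least 5 CPM, which also held LSMEM1, a membrane protein (3.25 ± 0.23 on the log2 scale), and GPR50, an orphan receptor related to the melatonin receptors (2.60 ± 0.18). FOS, the partner of JUN proteins in the AP-1 transcription factor, stood at 4.96, 4.28 and 3.73 CPM in NC, 287, 323 and 293 for BSG, 224, 248 and 256 for M-BSG and 109, 162 and 175 for M-BSG-Hot. Every treated library was thus more than an order of magnitude above the highest NC library, with the lowest values in M-BSG-Hot. The mean rise was 5.68 ± 0.14 (SE) on the log2 scale (adjusted p = 2.71e-10). FOSB, a close relative, was at 2.24, 2.78 and 1.87 CPM in NC, at 92.9, 116 and 104 for BSG, at 80.5, 82.1 and 91.3 for M-BSG and at 16.3, 39.4 and 32.7 for M-BSG-Hot. Its rise was 4.79 ± 0.24 (adjusted p = 6.84e-08), and the treated and NC libraries did not overlap.

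Of the 12 AP-1 and related factors listed, 7 rose and none fell, against 4.19% and 6.85% of all genes, and 6 were common higher. The list's median log2 fold change was 0.63, against -0.01 over all genes tested. Without BSG 1, M-BSG 1 and M-BSG-Hot 3, 7 of the list were higher and 2 lower. JUNB, an AP-1 subunit, rose by 1.25 ± 0.13 and ATF3, a stress-induced repressor and activator, by 1.13 ± 0.13, while JUND rose by 0.63 ± 0.10. JUN itself was at -0.05 ± 0.06 and FOSL1 at 0.13 ± 0.07, and neither passed the test. Scaled for gene length, FOS was at 2.13 FPKM in NC and at 140.3, 115 and 69.8 for BSG, M-BSG and M-BSG-Hot, and JUNB was at 16.6 FPKM in NC and 48.0, 39.5 and 28.0 in the same groups.

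**Figure D1:**
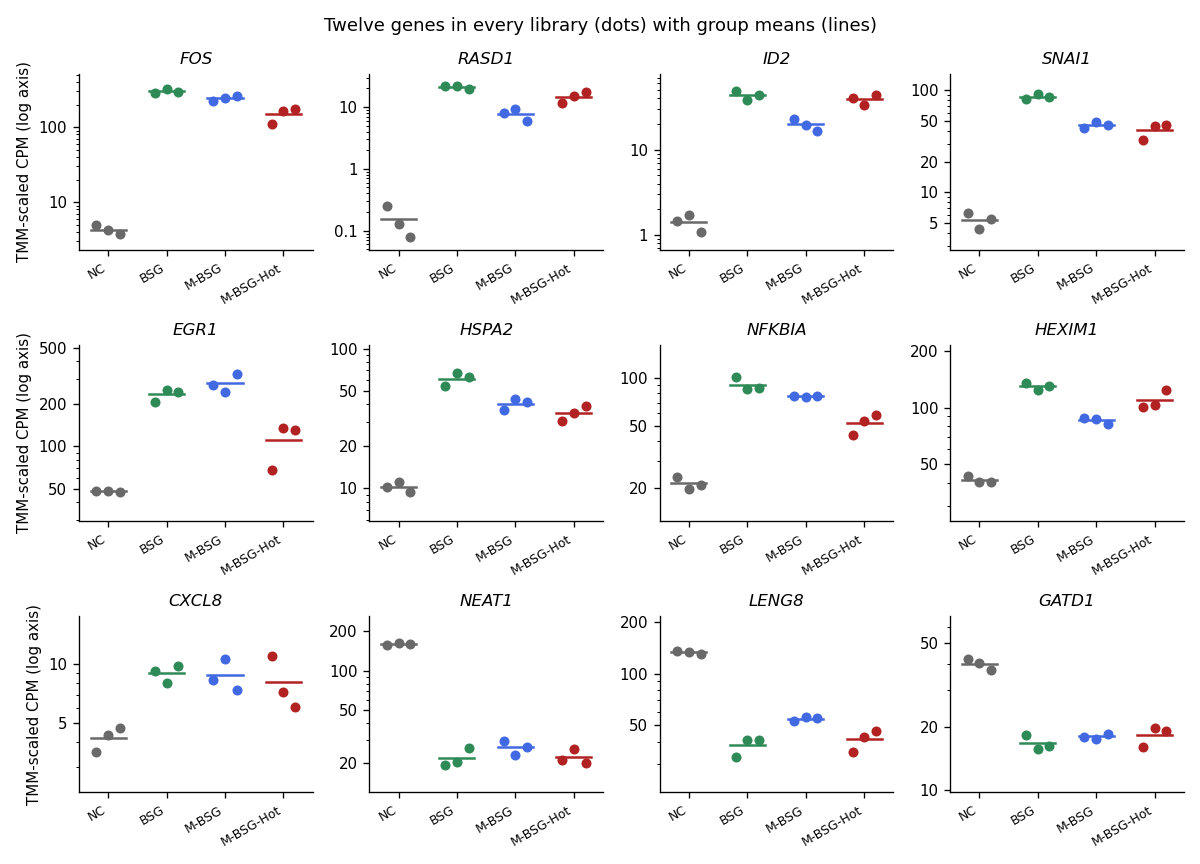
TMM-scaled CPM (log axis) of 12 genes in every library (dots) with group means (lines), for NC, BSG, M-BSG and M-BSG-Hot. All 9 treated libraries of FOS (109 to 323 CPM) lie above the NC libraries (3.73 to 4.96), and all 9 of NEAT1 (19.1 to 29.5) lie below them (159 to 164).

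Among 27 EGR, KLF and other immediate-early factors 13 rose (48.1%, against 4.19% of all genes) and none fell. Of this list 14 did not pass and 11 were common higher. Without BSG 1, M-BSG 1 and M-BSG-Hot 3, 14 were higher and 2 lower. EGR1, a zinc finger factor induced by serum and growth signals, was at 48.5, 48.2 and 47.3 CPM in NC, 204, 252 and 243 for BSG, 272, 243 and 327 for M-BSG and 67.7, 136 and 129.9 for M-BSG-Hot. All treated libraries were above NC, and the first M-BSG-Hot library came closest to it. The rise was 2.01 ± 0.16 (adjusted p = 7.29e-06). EGR2 rose by 3.33 ± 0.30, CSRNP1, a nuclear protein named for its induction by AXIN1, by 1.45 ± 0.10, KLF5 by 1.11 ± 0.09 and KLF4 by 0.97 ± 0.07, all 4 without overlap with NC. NR4A2, an orphan nuclear receptor of the same early class, rose by 2.22 ± 0.22, from 1.34 to 1.59 CPM in NC to 3.45 to 13.3 in treated libraries.

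ID2, ID4 and SNAI1 rose while their nearest relatives did not pass the test. ID proteins bind basic helix-loop-helix factors and keep them from DNA, and SNAI1 represses epithelial genes. ID2 was at 1.47, 1.71 and 1.08 CPM in NC, 48.6, 37.9 and 44.2 for BSG, 23.1, 19.6 and 16.7 for M-BSG and 40.1, 33.7 and 43.4 for M-BSG-Hot, with M-BSG the lowest of the treated groups. It rose by 4.50 ± 0.17 (adjusted p = 1.66e-09). ID4 rose by 2.61 ± 0.18, whereas ID1 was at 0.05 ± 0.10 and ID3 at 0.10 ± 0.09. SNAI1 was at 6.27, 4.39 and 5.50 CPM in NC, 82.1, 91.3 and 85.9 for BSG, 42.5, 49.0 and 45.7 for M-BSG and 32.6, 44.6 and 46.2 for M-BSG-Hot. Its rise was 3.34 ± 0.12 (adjusted p = 3.57e-09) and SNAI2 was at 0.03 ± 0.08. In all, 6 of 18 members of the list of ID, SNAI and BMP output genes rose (33.3%, against 4.19% of all genes). The median over the list was 0.05.

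Of 28 brakes on kinase signalling 14 rose (50%, against 4.19% of all genes), 2 fell (7.14%, against 6.85%) and 12 did not pass, with a list median of 0.24. RASD1, a dexamethasone-induced small GTPase of the Ras family, had the highest fold change among the common genes that averaged at least 5 CPM. Its values were 0.255, 0.13 and 0.0789 CPM in NC, 21.7, 21.6 and 19.8 for BSG, 7.91, 9.27 and 6.05 for M-BSG and 11.4, 15.3 and 17.6 for M-BSG-Hot, a rise of 6.43 ± 0.42 (adjusted p = 6.56e-09). No treated library was near NC, and M-BSG was the lowest group. RGS2, which shortens signalling by Gq proteins, rose by 1.91 ± 0.09 and RGS16 by 1.77 ± 0.14. RND3, a GTPase without GTP hydrolysis that opposes RhoA, rose by 0.93 ± 0.06, and the MAP kinase phosphatases DUSP1 and DUSP10 by 0.61 ± 0.08 and 1.21 ± 0.12. ZFP36, which binds AU-rich messages and sends them to decay, rose by 1.97 ± 0.17, and SOCS3, the cytokine signalling suppressor, by 0.95 ± 0.10. For each of these genes all 9 treated libraries lay above NC. ADM, the vasodilator peptide adrenomedullin, comes from another list, that of hypoxia and glycolysis, and rose by 1.30 ± 0.07. Of 29 genes tested in that list 2 were higher (6.9%) and 4 lower (13.8%). PLK2, a polo-like kinase that was singled out after its values were seen, went from 37.2 to 38.2 CPM in NC to 113 to 160.0 in treated libraries, a rise of 1.87 ± 0.06 (adjusted p = 1.66e-09). SGK1, a kinase induced by steroids and osmotic stress, went from 34.4 to 39.5 CPM in NC to 91.9 to 116, a rise of 1.45 ± 0.06 (adjusted p = 1.92e-08). It comes from the list of steroid- and clock-linked genes, where 3 of 20 were higher (15%) and 2 lower (10%). The other 15 did not pass, among them FKBP5 at -0.14 ± 0.06 and TSC22D3 at -0.07 ± 0.10.

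Growth factors and cytokines rose in 7 of 18 tested cases (38.9%, against 4.19% of all genes) and fell in 1 (5.56%, against 6.85%). HBEGF, a ligand of the EGF receptor, was at 15.2, 13.4 and 15.0 CPM in NC, 61.2, 59.6 and 57.7 for BSG, 42.7, 42.0 and 39.1 for M-BSG and 25.8, 38.0 and 36.2 for M-BSG-Hot. It rose by 1.58 ± 0.10 (adjusted p = 4.95e-07), with no overlap with NC. The neutrophil chemokines CXCL1 and CXCL8 rose by 1.48 ± 0.21 and 1.03 ± 0.17, and CCN2, a matricellular protein, by 0.38 ± 0.07. Among 19 NF-kB subunits, inhibitors and targets only NFKBIA, NFKBIZ and PTGS2 were called, all higher (15.8%, against 4.19% of all genes). Without BSG 1, M-BSG 1 and M-BSG-Hot 3, 6 were higher and 2 lower. NFKBIA, the inhibitor that holds NF-kB in the cytoplasm, rose from 19.9 to 23.7 CPM in NC to 43.3 to 102 in treated libraries, by 1.73 ± 0.09 (adjusted p = 8.92e-08). PTGS2, the inducible cyclooxygenase, rose by 1.54 ± 0.18 and NFKBIZ, a nuclear co-regulator, by 1.41 ± 0.15, while NFKB2 was at 0.04 ± 0.06 and ICAM1 at -0.08 ± 0.08 without passing.

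Heat shock proteins rose in 9 of 29 cases (31%, against 4.19% of all genes) and fell in 1 (3.45%, against 6.85%). The list median was 0.17. HSPA2, an HSP70 chaperone best known from testis, was at 10.3, 11.2 and 9.39 CPM in NC, 54.3, 66.5 and 62.2 for BSG, 36.4, 43.5 and 41.6 for M-BSG and 30.3, 34.6 and 38.9 for M-BSG-Hot. The rise was 2.10 ± 0.10 (adjusted p = 2.93e-08), and BSG, not M-BSG-Hot, held the highest values. HSPA1A was at 11.6, 9.27 and 11.1 CPM in NC, 35.0, 31.5 and 30.7 for BSG, 18.6, 17.1 and 19.6 for M-BSG and 19.8, 23.3 and 26.5 for M-BSG-Hot. HSPA1A rose by 1.18 ± 0.10 and HSPA1B by 1.15 ± 0.11, but these near-identical copies can share reads, so their split is uncertain. DNAJB1, an HSP70 co-chaperone, rose by 0.70 ± 0.06, DNAJA1 by 0.45 ± 0.05 and the abundant HSPA8 by 0.34 ± 0.06. Among endoplasmic reticulum chaperones and related genes 3 of 22 rose (13.6%) and 1 fell (4.55%). Without BSG 1, M-BSG 1 and M-BSG-Hot 3 these were 8 and 1. HSPA5, the main chaperone of that compartment, was at 0.40 ± 0.06. In the integrated stress response list 3 of 24 rose (12.5%) and 2 fell (8.33%, near the 6.85% of all genes). Without those libraries these were 4 and 4. ATF4, the central factor of this response, rose by 0.44 ± 0.09. ASNS, a known ATF4 target that makes asparagine, fell by 0.73 ± 0.15.

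HEXIM1, which holds the elongation kinase P-TEFb in an inactive complex, was at 43.4, 40.1 and 40.04 CPM in NC, 135, 124 and 130.0 for BSG, 88.2, 87.0 and 81.9 for M-BSG and 100.2, 104 and 124 for M-BSG-Hot. It rose by 1.37 ± 0.07 (adjusted p = 6.86e-08) with no overlap. BRD2, a bromodomain protein that binds acetylated histones, rose by 0.72 ± 0.06, whereas CDK9, the kinase of P-TEFb, was at -0.05 ± 0.06. The list of elongation control and nuclear RNA genes moved both ways, 8 higher (30.8%) and 6 lower (23.1%) of 26. The splicing factors SRSF6 and SRSF3 rose by 0.62 ± 0.06 and 0.53 ± 0.08, and the splicing-related kinase CLK4 fell by 0.76 ± 0.09 and PNISR fell by 0.40 ± 0.06. Of 18 histone genes tested 7 rose (38.9%, against 4.19% of all genes), none fell and the median was 0.50. H2BC21, a histone H2B gene whose message can be polyadenylated, rose by 2.29 ± 0.17, from 2.00 to 2.34 CPM in NC to 3.90 to 19.6 in treated libraries. Histone copies are similar in sequence, and how reads were split between them is not given in the sources used here.

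GADD45G, a growth arrest gene listed here with p53 targets, rose from 0.0789 to 0.156 CPM in NC to 1.83 to 6.90 in treated libraries, by 4.86 ± 0.39 (adjusted p = 1.25e-07). CDKN1A, the CDK inhibitor p21, rose by 0.52 ± 0.08. In that list 6 of 25 genes rose (24%, against 4.19% of all genes), with none lower, and 3 were common higher. The 19 that did not pass included MDM2 at 0.08 ± 0.09 and BBC3 at -0.41 ± 0.18. Without BSG 1, M-BSG 1 and M-BSG-Hot 3, 8 were higher and 2 lower. The groups overlapped for CDKN1A, since the first M-BSG-Hot library at 96.5 CPM lay inside the NC range of 88.6 to 101. MYC rose by 0.70 ± 0.08 and MCL1, a short-lived survival protein, by 0.49 ± 0.06, while CFLAR, an inhibitor of caspase-8 activation, fell by 0.40 ± 0.07.

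Part of the shared rise came from genes that were close to silent in NC. Of the 490 common higher genes, 11 had no count in any NC library and 29 had 1 to 3 counts over the NC group. A total of 3 counts over the NC group, the limit that a count of 0 allows, is 0.0268 CPM and covers counting error only. Against this limit TUBB1, a platelet tubulin, was at least 25.2-fold higher and TNF, the inflammatory cytokine, at least 9.03-fold higher in the treated libraries. AZU1, an antimicrobial protein of neutrophil granules, had 1 NC count and 558 treated counts, a ratio of 188 (95% counting interval 33.5 to 7420). IL17F, a cytokine of T helper cells, had 1 and 290 counts, a ratio of 97.5 (17.4 to 3863). Treated means were low, at 0.677 CPM for TUBB1, 0.242 for TNF, 1.69 for AZU1 and 0.872 for IL17F. With so few NC counts, a gene passed the count filter only through treated libraries. Only a rise could then be called, so these ratios describe the genes and are no separate support for a rise. Such genes were named after their values were seen. The same holds for genes best known from striated muscle: AMPD1, the muscle AMP deaminase, went from 0.0263 to 0.0851 CPM in NC to 0.652 to 5.40, PYGM, muscle glycogen phosphorylase, from 0.0779 to 0.142 to 0.408 to 6.49, and ACTC1, cardiac actin, from 0.0789 to 0.255 to 0.627 to 1.90. All 9 treated libraries were above NC for each of the 3, at levels that stayed low. These were named as common higher genes, for which that non-overlap is required. No list of muscle genes was counted, so the share of such genes that rose is not known. Among the 450 common higher genes with more than 3 NC counts, 114 rose at least 2-fold, 53 at least 4-fold and 24 at least 8-fold.

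**Figure D2:**
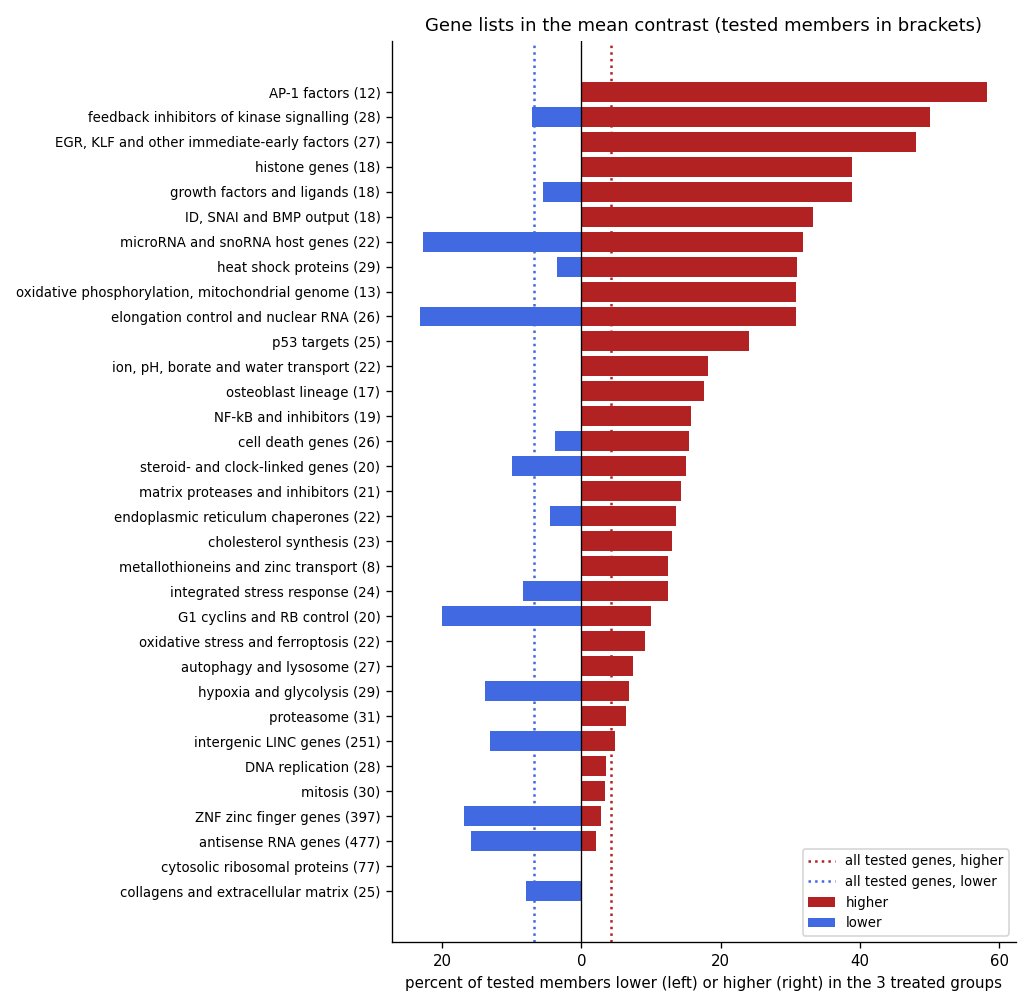
Percent of the tested members of each gene list that were higher (red, right) or lower (blue, left) in the mean of the 3 treated groups against NC, with the number tested in brackets and dotted lines at the shares of all tested genes (4.19% higher, 6.85% lower). AP-1 factors reach 58.3% higher, while ZNF genes and antisense RNA genes reach 16.9% and 15.9% lower.

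The deepest fall among common genes that averaged at least 5 CPM was that of NEAT1, the long non-coding RNA that scaffolds nuclear paraspeckles. It was at 159, 164 and 162 CPM in NC, 19.1, 20.3 and 25.7 for BSG, 29.5, 22.9 and 26.3 for M-BSG and 20.98, 25.2 and 19.8 for M-BSG-Hot. All 9 treated libraries lay far below NC and close to each other. It fell by 2.80 ± 0.10 (SE) on the log2 scale (adjusted p = 2.89e-10). LENG8, a nuclear protein related to RNA export factors, was at 135, 134 and 129 CPM in NC, 32.8, 40.9 and 41.1 for BSG, 53.3, 56.1 and 54.9 for M-BSG and 35.1, 42.8 and 46.4 for M-BSG-Hot. It fell by 1.58 ± 0.09 (adjusted p = 2.93e-08). LTB4R, the leukotriene B4 receptor, fell by 1.19 ± 0.08 and D2HGDH, a mitochondrial dehydrogenase, fell by 1.25 ± 0.10.

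Of 22 host genes of microRNAs and snoRNAs 5 fell (22.7%, against 6.85% of all genes), all of them microRNA hosts. A further 7 rose (31.8%, against 4.19%), of which 6 were snoRNA hosts. MIR23AHG, host of the miR-23a cluster, was at 26.9, 23.8 and 22.6 CPM in NC, 9.26, 10.9 and 8.71 for BSG, 8.05, 9.64 and 10.6 for M-BSG and 4.29, 6.41 and 4.48 for M-BSG-Hot, and fell by 1.66 ± 0.12 (adjusted p = 6.17e-07). MIR17HG, host of the miR-17 cluster, fell by 1.97 ± 0.24, from 9.15 to 9.62 CPM in NC to 0.381 to 4.46 in treated libraries. MIR222HG fell by 1.65 ± 0.13, MIR210HG fell by 1.57 ± 0.30 and MIR100HG fell by 0.48 ± 0.08. The remaining rise was that of a microRNA host, MIR22HG, by 1.25 ± 0.10. The snoRNA hosts SNHG12, SNHG1 and SNHG5 rose by 0.96 ± 0.09, 0.58 ± 0.08 and 0.63 ± 0.12. These are levels of host transcripts and not of mature small RNAs.

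Long non-coding RNA genes made up 11% of the genes tested, 26.8% of the common lower genes and 60.3% of those lowered at least 2-fold. Of 1691 lncRNA genes 233 (13.8%) were common lower and 32 (1.89%) common higher, against 4.45% and 3.34% of protein-coding genes. Their median log2 fold change was -0.25, compared with 0.01 for protein-coding genes. Genes named as divergent transcripts (-DT), which start near another gene's promoter and run away from it, were common lower in 34 of 191 cases (17.8%) and common higher in none, with a median of -0.36. An example named after its values were seen is GOT1-DT, at 4.51, 5.79 and 4.55 CPM in NC and 0.353 to 1.33 in the 9 treated libraries, which fell by 2.87 ± 0.22 (adjusted p = 7.91e-07). Summed over all lncRNA genes except NEAT1 and MALAT1 the level was 8579 to 8820 CPM in NC and 7098 to 9665 in treated libraries, so it overlapped, with BSG 1, BSG 3 and M-BSG 1 above every NC library. Summed over all -DT genes the level was 436 to 441 CPM in NC and 296 to 392 in treated libraries, with no overlap. Of 477 antisense RNA genes (-AS) 76 were called lower (15.9%) and 10 higher (2.1%), against 6.85% and 4.19% of all genes. Their summed level was 2036 to 2068 CPM in NC and 1529 to 1788 in treated libraries. MELTF-AS1 fell by 1.96 ± 0.18 and SLC9A3-AS1 fell by 1.67 ± 0.13. Whether counting used strand is not given in the sources used here, so reads of an antisense gene and of its overlapping partner may not have been told apart. Of 251 LINC genes 33 were lower (13.1%) and 12 higher (4.78%, near the 4.19% of all genes). Among the lower ones was LINC00342 with a fall of 1.23 ± 0.14.

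Zinc finger genes with ZNF symbols, many of them KRAB-type repressors, were lower in 67 of 397 cases (16.9%, against 6.85% of all genes). They were higher in 11 (2.77%, against 4.19%), and their median log2 fold change was -0.13. The counts of lower and higher genes were 87 and 23 without BSG 1, M-BSG 1 and M-BSG-Hot 3. ZNF589 was at 46.1, 41.8 and 46.0 CPM in NC, 13.7, 17.2 and 20.6 for BSG, 20.3, 21.4 and 22.0 for M-BSG and 16.9, 21.8 and 21.6 for M-BSG-Hot, and fell by 1.20 ± 0.11 (adjusted p = 3.68e-06). ZNF789 fell by 1.23 ± 0.12 and ZNF891 fell by 1.14 ± 0.12.

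**Figure D3:**
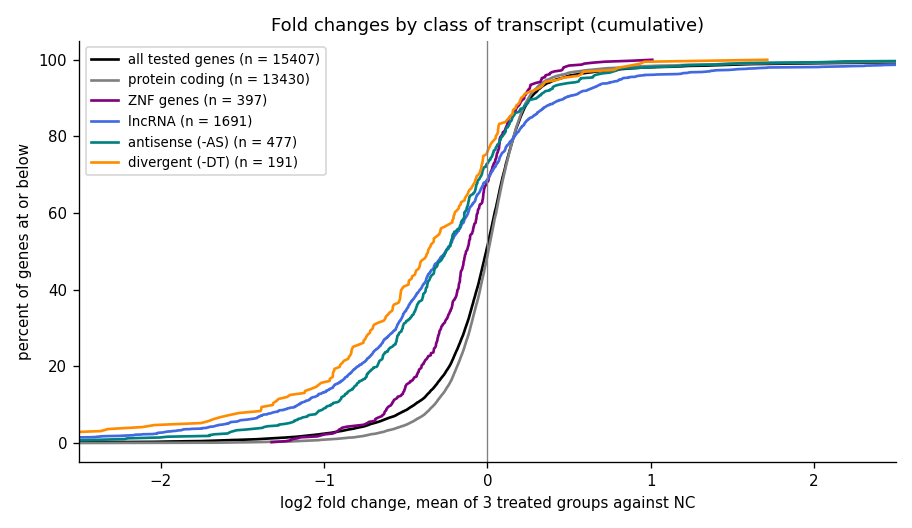
Cumulative percent of genes (y axis) at or below each log2 fold change of the mean of the 3 treated groups against NC (x axis, cut at both ends), by class of transcript. The curves of divergent, lncRNA and antisense genes lie left of that of all genes, with medians of -0.36, -0.25 and -0.25 against -0.01.

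Of the cell-cycle lists, G1 cyclins and RB control had 2 of 20 genes higher (10%) and 4 lower (20%, against 6.85% of all genes). DNA replication and mitosis had shares of higher genes near the 4.19% of all genes. DNA replication had 1 of 28 genes higher (3.57%) and none lower, and mitosis 1 of 30 higher (3.33%) and none lower. The proteasome had 2 of 31 higher (6.45%) and none lower. Several of these counts depended on BSG 1, M-BSG 1 and M-BSG-Hot 3: without them 10 proteasome genes were higher, 4 mitosis genes were higher and 2 lower, and 1 replication gene was higher. No cytosolic ribosomal protein gene of 77 was called, with a median of 0.25, and 4 were higher without the same 3 libraries. Their summed share of counts was 7.51% to 11.3% in treated libraries and 7.71% to 8.36% in NC (exact two-sided permutation test, n = 9 and 3, p = 0.2, adjusted 0.209). Among 13 mitochondrially encoded genes 4 were higher (30.8%), among them ND1 by 0.60 ± 0.08 and CYTB by 0.42 ± 0.07, which moved with the mitochondrial share of counts given above. Its part in that result was not tested. Metallothioneins and zinc transporters had 1 of 8 genes higher (12.5%), the transporter SLC30A1, and no metallothionein passed. SLC30A1 was not a common gene and lost its call in 6 alternatives. Osteoblast lineage genes had 3 of 17 higher (17.6%, and 5 without the 3 libraries). Collagens and matrix genes had none higher and 2 of 25 lower (8%, and 5 without the 3 libraries). Cholesterol synthesis had 3 of 23 higher (13%, and 7 without the 3 libraries), led by HMGCS1 with 0.72 ± 0.07. AQP3, a water and glycerol channel, rose by 1.40 ± 0.23 among 4 of 22 higher genes (18.2%) of ion, pH and water transport, and ADAMTS1, a secreted protease, rose by 1.57 ± 0.14.

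More of the common higher than of the common lower genes differed among the 3 treated groups. The test among treated groups uses no NC library in its contrast, and 147 of all genes tested (0.954%) passed it. Within the common higher genes 85 of 490 passed (17.3%), and within the common lower genes 7 of 869 (0.806%), together 92 or 6.77% of the common genes. The requirement that all 9 treated libraries lie beyond NC had already removed genes that failed to respond in 1 group, so these counts describe the genes that were left. Of the 85 uneven rises 68 were smallest in M-BSG-Hot, 17 for M-BSG and none in BSG, and 64 were largest in BSG. Median log2 fold changes of the common higher genes were 0.61 for BSG, 0.55 for M-BSG and 0.36 for M-BSG-Hot, and those of the common lower genes were -0.65, -0.57 and -0.61. In pairwise tests of the common higher genes M-BSG-Hot was below BSG in 72 (14.7%) and above it in none, and below M-BSG in 49 (10.0%) and above it in 5 (1.02%). M-BSG was below BSG in 17 (3.47%) and above it in none. Same-numbered libraries of NC, BSG and M-BSG deviated together, whereas those of M-BSG-Hot did not. Some other-numbered pairs also did: BSG 3 correlated at 0.43 with M-BSG 2 and at 0.19 with M-BSG 3. Pairing by number is therefore uncertain. In a fit of NC, BSG and M-BSG alone, an alternative chosen after seeing the data, M-BSG was below BSG in 20 of 486 common higher genes (4.12%) and above it in none without the replicate number as a block, and below it in 48 (9.88%) and above it in 4 (0.823%) with the block. Among the common lower genes it was above BSG in 2 (0.230%) without the block and in 26 (2.99%) with it, and below it in none. Over all 15283 genes of that fit M-BSG was higher in 2 (0.0131%) and lower in 23 (0.150%) without the block, and higher in 437 (2.86%) and lower in 171 (1.12%) with it. Over all genes these lower shares were 0.753%, 0.597% and 0.130%, and 0.0974% were higher in M-BSG-Hot than in either other group. Among the common lower genes M-BSG-Hot was below M-BSG in 6 (0.690%) and below BSG in 1 (0.115%), and above each of them in 1. Single libraries mattered here: without M-BSG-Hot 1 the genes that differed among groups were 73, and without M-BSG 3 they were 74, in place of 147. They were also fewer by more than 1.5 times without NC 2 (97), NC 3 (93), BSG 2 (91), BSG 3 (86) or M-BSG-Hot 3 (92).

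**Figure D4:**
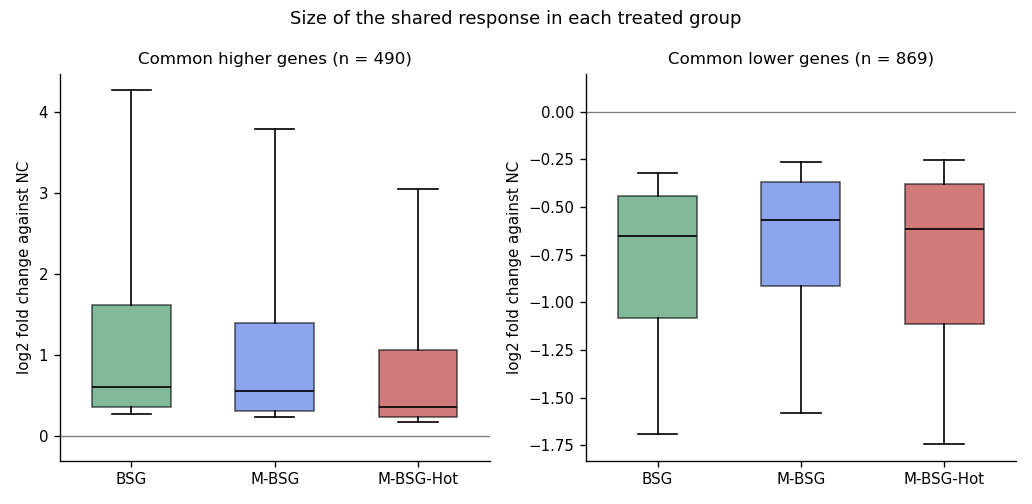
Log2 fold changes against NC of the 490 common higher and 869 common lower genes in each treated group (boxes: quartiles, line: median, whiskers: 10th and 90th percentiles). The medians of the higher genes step down from 0.61 for BSG to 0.55 for M-BSG and 0.36 for M-BSG-Hot, and those of the lower genes lie between -0.65 and -0.57.

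Among the genes that differed most clearly, ADM was at 29.8, 30.5 and 26.3 CPM in NC, 91.4, 93.5 and 89.4 for BSG, 80.7, 68.2 and 74.1 for M-BSG and 50.1, 55.3 and 51.8 for M-BSG-Hot. No 2 groups overlapped. M-BSG-Hot was below BSG by 0.80 on the log2 scale (a difference of -0.80, 95% interval -0.98 to -0.63, adjusted p = 0.000562). RASL11A, a small GTPase of the Ras superfamily, was at 1.93, 1.79 and 1.45 CPM in NC, 16.1, 12.1 and 10.6 for BSG, 8.08, 9.54 and 8.65 for M-BSG and 2.26, 3.65 and 3.61 for M-BSG-Hot. The difference of M-BSG-Hot from BSG was -2.02 (-2.44 to -1.60, adjusted p = 0.000562), and M-BSG-Hot stood closest to NC. OVGP1, an oviduct glycoprotein of the chitinase family, differed between the same groups by -1.35 (-1.65 to -1.05, adjusted p = 0.000562). H2BC21 and ID2 had another order: M-BSG was lowest, M-BSG-Hot exceeded M-BSG by 1.44 (1.05 to 1.84, adjusted p = 0.00478) for H2BC21 and by 0.98 (0.67 to 1.29, adjusted p = 0.00749) for ID2, and M-BSG-Hot differed from BSG by -0.19 (-0.57 to 0.19) and -0.16 (-0.46 to 0.15). RGS2 and SNAI1 were highest in BSG, with M-BSG below it by 1.03 and 0.92 (differences of -1.03, interval -1.26 to -0.81, adjusted p = 0.00138, and -0.92, interval -1.20 to -0.64, adjusted p = 0.0094).

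The most even changes were nearly all falls. GATD1, a glutamine amidotransferase-like protein, was at 42.2, 40.5 and 37.2 CPM in NC, 18.3, 15.6 and 16.1 for BSG, 17.9, 17.5 and 18.5 for M-BSG and 16.0, 19.6 and 19.0 for M-BSG-Hot. The treated groups overlapped each other and lay well below NC, with a fall of 1.18 ± 0.08 (adjusted p = 2.28e-07). Its 3 pairwise differences had 95% intervals between -0.19 and 0.34, so differences within that span remain possible. TTC14, a tetratricopeptide protein, fell by 1.10 ± 0.08, CCDC136 fell by 1.05 ± 0.10, FAM219B fell by 1.01 ± 0.08 and AMDHD2, an enzyme of the hexosamine pathway, fell by 1.03 ± 0.13. CXCL8 was the only rise among the 6 most even genes, and its pairwise intervals were wide, from -0.59 for M-BSG-Hot against BSG to 0.40 for M-BSG against BSG.

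Common genes differed from other genes in length and in their level in NC. The median length of the common higher genes was 2867 bases, that of the common lower genes 4979 and that of all genes tested 3986, by the lengths used for the deposited FPKM. When all tested genes were split by length into 5 groups of equal size, the median log2 fold change went from 0.11 in the shortest group to -0.11 in the longest. The share of common higher genes went from 4.22% to 1.2% and that of common lower genes from 3.41% to 7.2%. In NC 21.6% of the common higher genes were under 1 CPM, compared with 14.9% of all tested genes and 8.17% of the common lower genes. Genes close to silent in NC could pass the count filter only through treated libraries. Such genes could only come out higher, so these shares depend in part on the filter. The part of gene length and of low levels in the results above was not tested.

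**Figure D5:**
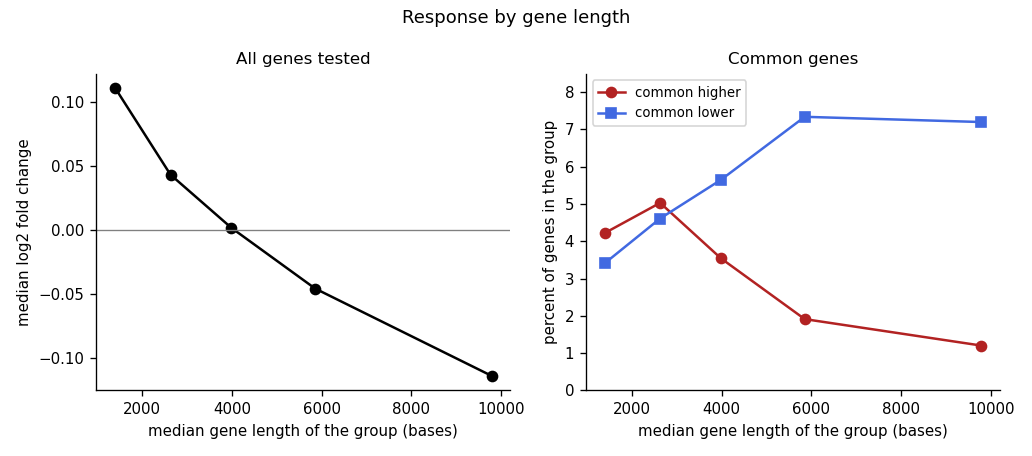
Median log2 fold change of all tested genes (left) and percent of genes that were common higher or common lower (right) in 5 groups of gene length, plotted at the median length of each group in bases. The median change goes from 0.11 to -0.11, and common lower genes go from 3.41% to 7.2% of a group.

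Promoters of the common higher genes held TATAAA more often than those of other genes. RefSeq promoters, from 250 bases before to 50 after a start, were matched for 376 common higher genes (565 promoters), 649 common lower genes (891) and 12052 tested genes (17476). On either strand TATAAA was in 18.6% of the promoters of common higher genes, 30.7% of those raised at least 2-fold, 4.38% of those of common lower genes and 6.67% of all. With its first base at -40 to -20 on the strand of the gene, as in the promoters of FOS and HEXIM1 printed above, the shares were 11.0%, 20.3%, 0.786% and 1.64%. Among genes of at least 1 CPM in NC the unrestricted shares were 17.1% for common higher genes and 6.05% for all, and under 1 CPM they were 26.7% and 11.5%. The CArG box of EGR1 and EGR2 was in 2.83% of the promoters of common higher and 1.12% of those of all genes. The kappa B site was in 12.4% and 13.5%, TGANTCA, the AP-1 element, in 6.37% and 5.62%, TGACGTCA, the cyclic AMP element, in 4.25% and 2.66%, CACGTG in 8.85% and 9.18%, GGGCGG in 61.6% and 64.6%, and the heat shock element in 0.885% and 0.332%. The palindrome read by the glucocorticoid receptor was in 0.177% and 0.229%. Among genes raised at least 2-fold (153 promoters) some shares lay on the other side of that of all genes: TGACGTCA was in 1.96%, the kappa B site in 17.6% and the heat shock element in none. There the CArG box was in 4.58%, TGANTCA in 5.88%, CACGTG in 5.88% and GGGCGG in 52.3%. Promoters of 1 gene can overlap each other, and no test was made of these shares.

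The threshold did not mark a break in the data. Just inside it, USP46-DT was at -0.70 ± 0.22 and GPATCH4 at 0.25 ± 0.08, and they lost their call in 10 and in 8 of the fits that left out 1 library. Just outside it, LOC107984316 was at -0.23 ± 0.07 and TIPARP at 0.31 ± 0.09. At an unadjusted p under 0.05, 4029 genes would have been counted.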

How the data were processed

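The authors deposited, per library, a table of whole, unnormalised counts for 24180 gene symbols and a table of FPKM. The deposited FPKM are those counts rescaled: 100% of values matched the count over gene length and library total within a relative tolerance of 1e-06. Per the labels' protocols, a SMARTER mRNA-Seq kit was used on total RNA. Not given in the sources used here: aligner, counter, annotation and strand setting. GRCm38 and mm10 stand in the submitters' processing notes; these are mouse builds, although symbols are human, and this is unresolved. Symbols were matched to RefSeq (22776 directly, 268 by synonym, 1136 not).

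Counts were tested with edgeR 4.0.16 in R 4.3.3: TMM factors, filterByExpr with a minimum count of 10 (15407 genes), a quasi-likelihood fit of 12 libraries with 1 mean per group, the contrast of the equally weighted treated groups with NC, a joint test among treated groups, and 3 pairwise tests with 95% intervals. Adjusted p-values are Benjamini-Hochberg values over all tested genes, called under 0.05. SE come from the same fit. DESeq2 1.42.0 and limma 3.58.1 were alternatives. Replicate numbers were used as a block in alternatives only: deviations of same-numbered libraries all correlated above 0.1 among NC, BSG and M-BSG, but not with M-BSG-Hot. Some pairs of other numbers among these groups also correlated above 0.1. On simulated counts the mean contrast called 75% of 1.5-fold and 72% of 2-fold changes and 0.0675% of unchanged genes. Counting limits cover counting error only.

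Genes named are the 12 highest and 12 lowest common genes of at least 5 CPM, up to 4 called members per list with the smallest adjusted p, the 6 most even and 6 most uneven common genes of at least 2-fold, and 3 genes on each side of the threshold. 1 gene that the rule names is not reported here. Other names, list members among them, were chosen after their values were seen. Members, lists and rules were chosen with earlier results of these data known.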

Additional observations from a re-analysis of the deposited data

Results flagged for a closer look

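Several common genes differed among the 3 treated groups by a test of that difference (edgeR's quasi-likelihood test, adjusted p under 0.05), and 92 of the 1359 common genes did so. The spread between the highest and the lowest of the 3 group fold changes was 2.02 on the log2 scale for RASL11A, 1.63 for H2BC21, 1.35 for OVGP1, 1.07 for SNAI1, 1.03 for RGS2 and 0.80 for ADM. RASL11A, OVGP1 and ADM were lowest in M-BSG-Hot, SNAI1 too with M-BSG close to it, and H2BC21 and RGS2 were lowest in M-BSG.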

How the results depend on the processing

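Of 126 called genes named by rule, 34 lost their call under at least 1 of 27 alternatives, 33 of them when 1 library was left out, and 0 reversed. The genes higher in treated groups were 646, lower 1056, common higher 490, common lower 869, differing among treated groups 147 and common and differing 92. DESeq2 gave 1035 higher, 442 differing and 194 common and differing genes. Dropping the 3 libraries that differed most from their groups gave 1199, 1705, 867 common higher, 390 and 156. Library size alone gave 321 common higher genes. A change of at least 2-fold left 214 higher, 268 lower, 154 common higher and 229 common lower genes. Without the BSG group 93 genes differed among treated groups and 56 of them were common, and without the M-BSG-Hot group 25 and 23. Leaving out 1 library at a time gave 341 to 764 higher, 539 to 1109 lower, 307 to 588 common higher, 533 to 927 common lower, 73 to 147 differing and 52 to 96 common and differing genes. With the replicate number as a block the counts were 699, 1065, 514, 858, 147 and 89. Deviations of same-numbered libraries correlated between 0.11 and 0.68 in the 9 pairs among NC, BSG and M-BSG. In the 9 pairs with M-BSG-Hot they correlated between -0.53 and 0.09. Some other-numbered pairs were as high: BSG 3 correlated at 0.43 with M-BSG 2 and at 0.19 with M-BSG 3. M-BSG-Hot 3 correlated at 0.50 with BSG 1 and at 0.53 with M-BSG 1. A pairing of libraries 2 and 3 by number is thus uncertain in the data, and the labels give none. With the block and without the M-BSG-Hot group, an alternative chosen after seeing the data, 2258 genes were higher, 2335 lower, 1260 common higher, 1311 common lower, 608 differed between BSG and M-BSG and 87 of them were common; without the block these were 747, 917, 722, 881, 25 and 23. The blocked fit called 485 of 486 common higher and 860 of 869 common lower genes in the same direction. These genes had been chosen with the same NC, BSG and M-BSG libraries, so that overlap is no independent check. The cause of these changes was not tested, beyond the fewer libraries in each reduced fit. At this depth a count of 0 in NC allows up to 0.0268 CPM.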
